A study of Mus musculus with 6 samples.

Results

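Caveolae are small flask-shaped pits of the plasma membrane, and the RNA of 8 genes whose proteins build or shape them was followed in adipocytes with and without the transcription factor PU.1. The 8 genes were taken by name from the 35122 genes of the count table: the caveolins Cav1, Cav2 and Cav3, the cavins Cavin1, Cavin2 and Cavin3, and the membrane-shaping proteins Ehd2 and Pacsin2. RNA came from the adipocytes that float after collagenase digestion of epididymal fat, taken from 3 control mice (genotype PU.1 fl/fl) and 3 aPU.1KO mice (AdipoqCre_PU.1 fl/fl), 1 library per mouse, numbered 1 to 3 within each group in the order of their labels. All were male C57BL/6 mice on chow, 10 to 11 months old by the labels, whereas the text of the study gives more than 1 year, and the controls were littermates. Both groups carry loxP sites around a single exon of Spi1, the gene for PU.1, and Cre is expressed from the adiponectin promoter, so that deletion is directed to adipocytes and not to the macrophages, endothelial cells or fibroblasts that the fraction may also hold.

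A caveola forms when caveolin oligomers, inserted into the inner leaflet of the membrane, are covered by a coat of cavins. Caveolin-1 and cavin-1 are both required for caveolae outside muscle, and caveolin-2 assembles with caveolin-1. Caveolin-3 and cavin-4 are the muscle forms, cavin-2 and cavin-3 are bound through cavin-1, EHD2 is an ATPase that forms a ring at the neck, and PACSIN2 (syndapin-2) is an F-BAR protein that bends the membrane. Adipocytes and endothelial cells are among the cell types richest in caveolae, and loss of caveolin-1 or cavin-1 in mice or humans leads to a loss of fat tissue.

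The libraries held 20550252 to 24310144 counts, except control mouse 1 with 69283842. Spi1 was counted at 24.3, 6.35 and 26.7 CPM (read counts divided by library size and scaled with TMM factors) in control mice 1, 2 and 3. In aPU.1KO mice 1, 2 and 3 it was at 3.20, 1.22 and 4.17 CPM. The log2 fold change was -2.75 (SE 0.64, edgeR adjusted p = 0.0788, DESeq2 adjusted p = 7.65e-05). These values include reads from the exons of Spi1 that Cre does not remove. The macrophage markers Adgre1, Cd68 and Itgam had log2 fold changes of -2.60, -2.54 and -2.41 in the same fit. Macrophages also express Spi1, and control mouse 2 was the lowest control for these 3 markers as for Spi1. The 3 were named after their values were seen. Over the 12 macrophage markers listed the median was -1.97, with 10 negative and 2 positive values. Positive log2 fold changes mean higher in aPU.1KO adipocytes throughout. Adjusted p-values come from the quasi-likelihood fit of edgeR over 13925 genes (Benjamini-Hochberg) unless another tool is named. The adipocyte markers Adipoq (adiponectin) and Plin1 (perilipin 1) stood at 2448 to 2847 CPM and 2042 to 2226 CPM in control mice and at 3359 to 3943 CPM and 2368 to 2669 CPM in aPU.1KO mice. These are bulk samples, in which fewer cells of a type and less RNA per cell cannot be told apart.

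None of the 7 caveolae genes above the count filter passed an adjusted p of 0.05 between the groups, by edgeR, DESeq2 or limma-voom. In the whole table edgeR called 33 genes at that threshold, 0.237% of those tested, and DESeq2 called 1833, 11% of the 16684 genes it tested. At an unadjusted p under 0.05 edgeR called 0 of the 7 caveolae genes, against 25.7% of all genes tested, and DESeq2 called 1, Cavin1, against 18.5% of the 21526 genes to which it gave a p. The median size of their log2 fold changes was 0.11 and the largest was 0.20, beside a median of 0.21 over all genes tested. The median SE was 0.12 for the 7 and 0.15 for all genes. Cav1, Cav2 and Cavin2 had positive and Cavin1, Cavin3, Ehd2 and Pacsin2 negative values, with a median of -0.02 beside 0.01 over all genes tested. The 95% intervals of the 7 fold changes together ran from 0.689-fold to 1.42-fold.

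**Figure D1:**
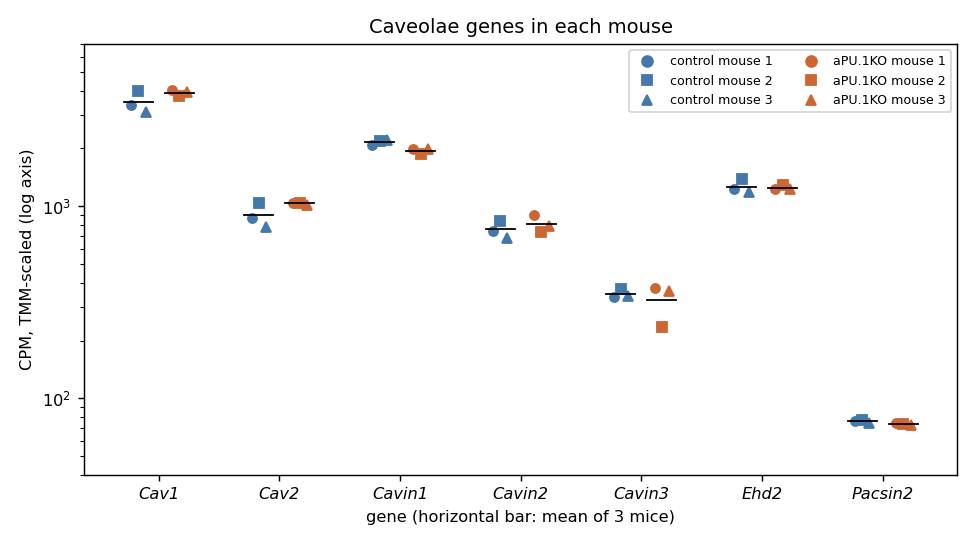
TMM-scaled CPM (log axis) of the 7 caveolae genes above the count filter, with 1 symbol per mouse and a horizontal bar at the mean of each group of 3. The mice of both groups overlap for Cav1, Cav2, Cavin2, Cavin3 and Ehd2, and Cavin3 is lowest in aPU.1KO mouse 2, at 235 CPM.

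Caveolae transcripts made up close to 1% of all counts. The 8 genes together took 0.915%, 0.991% and 0.906% of the counts in control mice 1, 2 and 3 and 0.925%, 0.819% and 0.947% in aPU.1KO mice 1, 2 and 3, or 0.937% ± 0.0470 and 0.897% ± 0.0685 (SD, n = 3). The groups overlapped, with the lowest share in aPU.1KO mouse 2. On the TMM scale used for single genes the 8 summed to 8730, 9881 and 8401 CPM in control mice 1, 2 and 3 and to 9658, 8997 and 9390 CPM in aPU.1KO mice 1, 2 and 3. There the groups overlapped too, but control mouse 3 was lowest and the aPU.1KO mean was the higher one (9348 ± 333 against 9004 ± 777 CPM, SD, n = 3), so that the direction of this small difference depends on the scaling.

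Divided by exon length in kilobases, to compare levels between genes, Cav1 was the most abundant of the 8 in both groups, with 1014 ± 130 CPM per kb in control adipocytes (SD, n = 3), 36th of 35102 genes with an annotated length. Cavin1 followed with 603 ± 18.1 CPM per kb, in place 49. Cav2, Cavin2 and Ehd2 had 269 ± 39.2, 248 ± 25.8 and 248 ± 21.1 CPM per kb in control mice, and neighbours among these 3 overlapped. Cavin3 lay below them with 211 ± 10.9 CPM per kb and no overlap with Ehd2. Pacsin2 was 13.7 times less abundant than Cavin3, with 15.4 ± 0.272 CPM per kb, and Cav3 was close to 0. The order was the same in aPU.1KO adipocytes, at 1135 ± 42.9, 544 ± 19.9, 310.1 ± 5.56, 264 ± 27.5, 244 ± 6.11, 195 ± 46.7 and 15.0 ± 0.135 CPM per kb for Cav1, Cavin1, Cav2, Cavin2, Ehd2, Cavin3 and Pacsin2. There only Cavin2 and Ehd2, among neighbours in that order, overlapped.

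Cav1 (ENSMUSG00000007655, chr6:17306335-17341452, plus strand, GRCm38 with GENCODE M21) encodes the caveolin without which non-muscle caveolae do not form. Its level was 3382, 3984 and 3110 CPM in control mice 1, 2 and 3 and 4049, 3755 and 3923 CPM in aPU.1KO mice 1, 2 and 3. Both groups overlapped, since control mouse 2 lay above 2 of the 3 aPU.1KO mice. The log2 fold change was 0.16 (SE 0.14, 95% interval -0.18 to 0.50, edgeR adjusted p = 0.510), with 0.26 without control mouse 2 and 0.08 without control mouse 3.

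Cav2 (ENSMUSG00000000058, chr6:17281185-17289115) lies 17219 bp before Cav1 on the same strand, and its protein needs caveolin-1 to leave the Golgi. Control mice 1, 2 and 3 had 871, 1041 and 784 CPM and aPU.1KO mice 1, 2 and 3 had 1045, 1045 and 1013 CPM. Control mouse 2 lay within the aPU.1KO range and the other 2 control mice below it. The log2 fold change was 0.20 (SE 0.13, 95% interval -0.10 to 0.50, edgeR adjusted p = 0.352). Without control mouse 2 it was 0.31 with an unadjusted p of 0.0267, and without control mouse 3 it was 0.11.

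The stretches upstream of both annotated starts are shown because Cav1 and Cav2 are neighbours with like values across the mice, beside that of Ehd4, a gene of the EHD family described further on. They are RefSeq windows on GRCm38.p6 of the bases before the start, read 5′ to 3′ on the strand of the gene and limited to bases outside annotated exons. Capitals mark GAGGAA, letters that PU.1 can bind, searched on both strands. Other ETS sequences were not searched.
Cav1 (chr6:17306085-17306334, plus strand): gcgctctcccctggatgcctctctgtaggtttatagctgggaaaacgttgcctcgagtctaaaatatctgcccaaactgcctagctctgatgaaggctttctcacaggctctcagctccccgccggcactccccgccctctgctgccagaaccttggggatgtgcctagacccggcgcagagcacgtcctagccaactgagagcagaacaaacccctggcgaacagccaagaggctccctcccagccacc
Cav2 (chr6:17280935-17281184, plus strand): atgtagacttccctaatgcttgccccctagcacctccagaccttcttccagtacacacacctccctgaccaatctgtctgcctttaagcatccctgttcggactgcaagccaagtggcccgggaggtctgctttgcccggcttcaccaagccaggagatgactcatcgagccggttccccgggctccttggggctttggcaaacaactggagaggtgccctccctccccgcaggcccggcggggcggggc
Ehd4 (chr2:120154607-120154825, minus strand): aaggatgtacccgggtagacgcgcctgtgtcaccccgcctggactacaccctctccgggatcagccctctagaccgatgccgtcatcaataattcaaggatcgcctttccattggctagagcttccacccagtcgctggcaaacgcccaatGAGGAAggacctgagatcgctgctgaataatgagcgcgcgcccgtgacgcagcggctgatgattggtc
GAGGAA occurs in 0 places in the Cav1 and Cav2 stretches and in 1 in that of Ehd4, and 23.3% of 32851 such windows of mouse genes hold it. Cav1 has a second annotated start, whose window holds 1 GAGGAA, and each of the 2 windows of Cavin1 holds 2. These 3 windows lie inside the genes and are not shown. Those of Cavin1 overlap nearly completely (chr11:100970618-100970867 and chr11:100970616-100970865), so that their matches can be the same ones. The windows given for Cav3, Cavin2, Ehd2 and Pacsin2, and for the family members Cavin4, Ehd3, Pacsin1 and Pacsin3, hold 0. The longer GAGGAAGT is in none of the 3 and in 2.44% of all windows. A match in letters is a description of the sequence and not a binding site.

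Cav3 (ENSMUSG00000062694, chr6:112459505-112472872), the muscle caveolin, had 5, 3 and 0 counts in control mice 1, 2 and 3 and 1, 0 and 0 in aPU.1KO mice 1, 2 and 3. It did not pass the count filter and was not tested by edgeR. DESeq2 gave it a log2 fold change of -1.97 with an unadjusted p of 0.424 and no adjusted p. Over 3 libraries its counts summed to 8 in control and 1 in aPU.1KO, beside 414971 and 245550 for Cav1. A library at 0 allows up to 3 counts, which is 0.119 CPM in control mouse 3 and 0.136 and 0.142 CPM in aPU.1KO mice 2 and 3. This limit covers counting error only.

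Cavin1 (ENSMUSG00000004044, chr11:100956733-100970887, minus strand) encodes the cavin that coats all caveolae, first known as PTRF. Its level was 2091, 2176 and 2219 CPM in control mice 1, 2 and 3 and 1989, 1869 and 1996 CPM in aPU.1KO mice 1, 2 and 3. The 3 aPU.1KO values were all below the lowest control value. Cavin1 had a log2 fold change of -0.15 (SE 0.11, 95% interval -0.40 to 0.10, edgeR adjusted p = 0.415), with an unadjusted p of 0.0452 and an adjusted p of 0.199 by DESeq2. With each mouse left out in turn it stayed between -0.18 and -0.12.

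Cavin2 (ENSMUSG00000045954, chr1:51289126-51302960), whose protein SDPR helps membranes to curve, had 747, 841 and 684 CPM in control mice 1, 2 and 3 and 897, 733 and 786 CPM in aPU.1KO mice 1, 2 and 3. The groups overlapped widely, and the highest value was that of aPU.1KO mouse 1. The log2 fold change was 0.09 (SE 0.12, 95% interval -0.21 to 0.38, edgeR adjusted p = 0.687), and without aPU.1KO mouse 1 it was -0.0057.

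Cavin3 (ENSMUSG00000037060, chr7:105480083-105482300, minus strand), whose protein PRKCDBP binds protein kinase C delta, had 339, 371 and 342 CPM in control mice 1, 2 and 3 and 375, 235 and 364 CPM in aPU.1KO mice 1, 2 and 3. aPU.1KO mouse 2 stood below the other 5 mice, which were close together. Its log2 fold change was -0.11 (SE 0.18, 95% interval -0.54 to 0.32, edgeR adjusted p = 0.733) and 0.07 without that mouse. Cavin3 shares 374 bp of exon with Gm45667 on the opposite strand, and whether the counting used strand is not given in the sources used here, so its level is uncertain. Over the cavins, the coefficient of variation among aPU.1KO mice was 3.66% for Cavin1, 10.4% for Cavin2 and 23.9% for Cavin3.

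Ehd2 (ENSMUSG00000074364, chr7:15946958-15967567, minus strand), whose protein holds caveolae at the cell surface, had 1224, 1391 and 1188 CPM in control mice 1, 2 and 3 and 1229, 1286 and 1236 CPM in aPU.1KO mice 1, 2 and 3. The aPU.1KO values lay inside the control range. Its log2 fold change was -0.02 (SE 0.11, 95% interval -0.27 to 0.23, edgeR adjusted p = 0.921), and it was 0.04 without control mouse 2.

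Pacsin2 (ENSMUSG00000016664, chr15:83375607-83464606, minus strand), the F-BAR member, had 76.0, 77.0 and 74.4 CPM in control mice 1, 2 and 3 and 74.1, 73.7 and 72.8 CPM in aPU.1KO mice 1, 2 and 3. No aPU.1KO mouse reached the control range, but the groups were separated by less than 1 CPM. The log2 fold change was -0.04 (SE 0.06, 95% interval -0.19 to 0.10, edgeR adjusted p = 0.675). Pacsin2 had the narrowest interval of the 7 genes, 0.878-fold to 1.07-fold. With Cavin1 it was 1 of 2 caveolae genes lower in every aPU.1KO mouse, and 15.5% of all genes tested were. None of the 7 was higher in every aPU.1KO mouse, as 16.7% of all genes tested were.

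**Figure D2:**
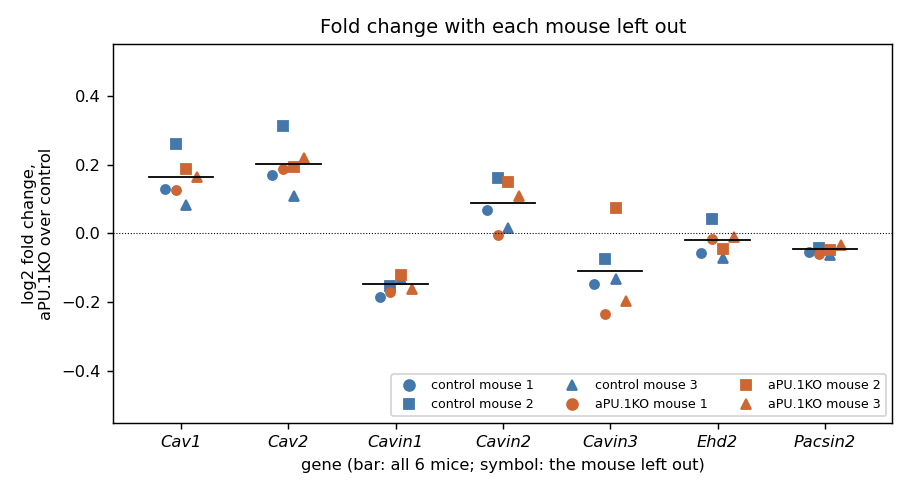
Log2 fold change (aPU.1KO over control) of the 7 caveolae genes with all 6 mice (horizontal bar) and with 1 mouse left out (symbol of the mouse left out). Cav1, Cav2, Cavin1 and Pacsin2 keep their sign with any mouse left out, and Cavin2, Cavin3 and Ehd2 cross 0 without 1 mouse each.

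Several caveolae genes were high or low in the same control mice. Control mouse 2 had the highest level of Cav1, Cav2, Cavin2, Cavin3, Ehd2 and Pacsin2 among the controls, and control mouse 3 the lowest of these except Cavin3. Cavin1 was lowest in control mouse 1 and highest in control mouse 3. The coefficient of variation among control mice was 12.8% for Cav1, 14.5% for Cav2 and 10.4% for Cavin2, and 3.01% for Cavin1 and 1.76% for Pacsin2. Among aPU.1KO mice it was 3.78% for Cav1 and 1.79% for Cav2.

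Ratios between caveolae genes within a library need no scaling between libraries. The ratio of Cav2 to Cav1, from levels per kb, was 0.266, 0.270 and 0.260 in control mice 1, 2 and 3 and 0.267, 0.287 and 0.267 in aPU.1KO mice 1, 2 and 3. The groups overlapped, with a difference in log2 ratio of 0.04 (exact two-sided permutation test, p = 0.4, adjusted p = 0.48 over 6 ratios). The caveolin pair thus kept a ratio of 0.260 to 0.287 while Cav1 itself ranged from 3110 to 4049 CPM.

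The ratio of Cavin1 to Cav1, coat protein to caveolin, was 0.594, 0.524 and 0.685 in control mice 1, 2 and 3 and 0.472, 0.478 and 0.489 in aPU.1KO mice 1, 2 and 3. All aPU.1KO values lay below all control values, and they were close together (0.601 ± 0.0807 against 0.479 ± 0.00853, SD, n = 3). The difference in log2 ratio was -0.32, a ratio 0.802 times that of control mice, with p = 0.1 in the exact two-sided permutation test, the smallest p that 3 mice against 3 can give, and an adjusted p of 0.2 over 6 ratios. The exact test could therefore not reach 0.05 for any ratio.

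Ehd2 to Cav1 was 0.244, 0.235 and 0.257 in control mice 1, 2 and 3 and 0.204, 0.230 and 0.212 in aPU.1KO mice 1, 2 and 3, also without overlap (difference in log2 ratio -0.19, exact permutation p = 0.1, adjusted p = 0.2). Cavin2 to Cavin1 was 0.420, 0.454 and 0.362 in control mice 1, 2 and 3 and 0.530, 0.460 and 0.462 in aPU.1KO mice 1, 2 and 3, higher without overlap (0.24, exact permutation p = 0.1, adjusted p = 0.2), and its difference was 0.15 without control mouse 3. The first of these shares Cav1, and the second Cavin1, with the ratio of Cavin1 to Cav1, so that the 3 are not independent. The ratio of Pacsin2 to Cav1 was 0.0136 to 0.0168 in control mice and 0.0128 to 0.0138 in aPU.1KO mice, with an overlap at 1 control mouse (-0.21, exact permutation p = 0.2, adjusted p = 0.3). Cavin3 to Cavin1 was 0.332 to 0.368 in control mice and 0.272 to 0.407 in aPU.1KO mice, with control values inside the aPU.1KO range (0.0085, exact permutation p = 1, adjusted p = 1).

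**Figure D3:**
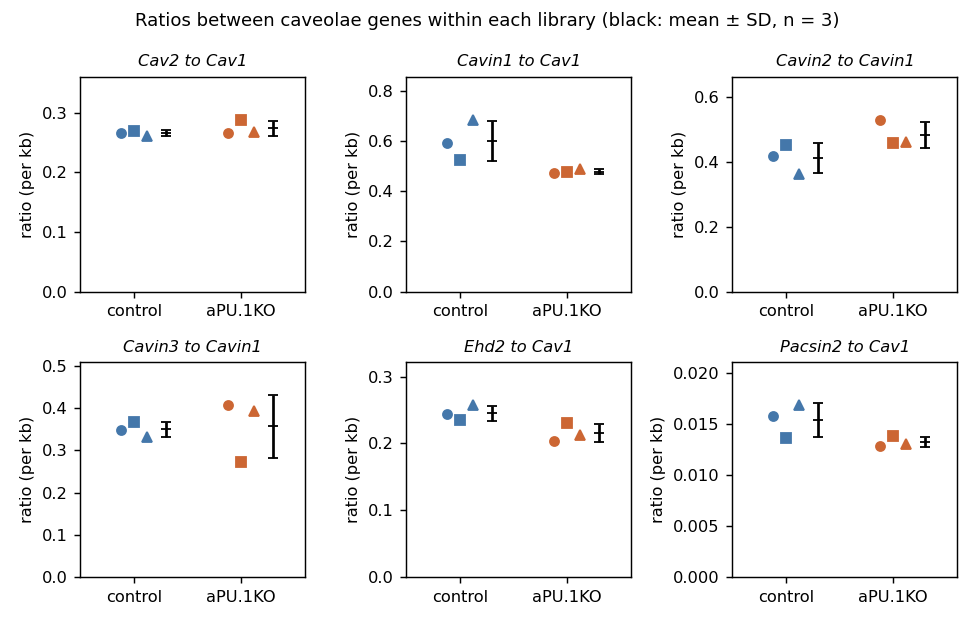
Ratios of per-kilobase levels between caveolae genes in each library (linear axes from 0; circle, square and triangle are mice 1, 2 and 3 of a group), with the mean ± SD of 3 mice in black. Cavin1 to Cav1 and Ehd2 to Cav1 do not overlap and are lower in aPU.1KO mice, and Cavin2 to Cavin1 does not overlap and is higher.

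Of 19 other genes linked to caveolae (the remaining family members, neck and actin partners, kinases and flotillins, and proteins placed in caveolae or bound by caveolin), 18 could be tested and 0 passed an adjusted p of 0.05 by edgeR. At an unadjusted p under 0.05, 2 were higher (Cavin4 and Slc2a4) and 2 lower (Ehd4 and Fyn), against 11.9% and 13.7% of all genes tested. All 4, and no other linked gene, passed an adjusted p of 0.05 by DESeq2, which called 11% of the 16684 genes it tested. Their median log2 fold change was 0.06, with 10 positive and 8 negative values, beside 0.01 over all genes tested.

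The family members included the widest differences. Ehd4 (ENSMUSG00000027293), an EHD ATPase that works in endocytic recycling, had 83.3, 49.2 and 77.1 CPM in control mice 1, 2 and 3 and 28.3, 25.2 and 32.7 CPM in aPU.1KO mice 1, 2 and 3. All aPU.1KO mice were below all control mice, and control mouse 2 was the lowest control. Its log2 fold change was -1.28 (SE 0.21, edgeR adjusted p = 0.0722), with an adjusted p of 3.1e-06 by DESeq2 and a range of -1.49 to -1.15 with each mouse left out. Its paralogue Ehd2 stood at -0.02 in the same fit. Ehd1, another ATPase of recycling endosomes, ranged from 128 to 179 CPM in control and from 129 to 165 CPM in aPU.1KO mice, with a log2 fold change of -0.13 (edgeR adjusted p = 0.631). Ehd3 had 58.7 to 98.8 CPM in control mice and 27.3 to 84.6 CPM in aPU.1KO mice, lowest in aPU.1KO mouse 2, with a log2 fold change of -0.31 (edgeR adjusted p = 0.664) that was 0.04 without that mouse.

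Cavin4, the muscle cavin (MURC), was rare, with 29, 11 and 13 counts in control mice 1, 2 and 3 and 23, 19 and 29 counts in aPU.1KO mice 1, 2 and 3. That is 0.399, 0.482 and 0.516 CPM against 1.17, 0.859 and 1.37 CPM, higher in all 3 aPU.1KO mice, with a log2 fold change of 1.30 (SE 0.32, edgeR adjusted p = 0.0862, DESeq2 adjusted p = 0.0496). The summed level of 9 skeletal muscle markers was 38.2 to 51.7 CPM in control mice and 36.6 to 131 CPM in aPU.1KO mice, highest in aPU.1KO mouse 1. Acta1, the skeletal muscle actin, carried most of that sum, at 36.0, 48.9 and 38.5 CPM in control mice 1, 2 and 3 and 129, 42.3 and 35.1 CPM in aPU.1KO mice 1, 2 and 3. The other 8 muscle markers together were at 2.29, 2.89 and 1.43 CPM in control mice 1, 2 and 3 and at 1.78, 1.54 and 1.52 CPM in aPU.1KO mice 1, 2 and 3, all within the control range. The part of muscle RNA in the value of Cavin4 was not tested. Pacsin3, the muscle-rich syndapin, had 12.1 to 21.5 CPM in control mice and 19.9 to 33.7 CPM in aPU.1KO mice, with 1 control mouse inside the aPU.1KO range (log2 fold change 0.62, SE 0.29, edgeR adjusted p = 0.225). Without aPU.1KO mouse 2 its log2 fold change was 0.32. Pacsin1, the neuronal syndapin, had 17, 3 and 9 counts in control mice 1, 2 and 3 and 0, 1 and 0 in aPU.1KO mice 1, 2 and 3. It did not pass the count filter and was not tested by edgeR. DESeq2 gave it a log2 fold change of -3.83 (unadjusted p = 0.0163, adjusted p = 0.102).

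Among proteins placed in caveolae, Slc2a4, the insulin-responsive glucose transporter GLUT4, had 151, 200 and 118 CPM in control mice 1, 2 and 3 and 259, 259 and 222 CPM in aPU.1KO mice 1, 2 and 3. All aPU.1KO mice lay above all control mice, with a log2 fold change of 0.66 (SE 0.19, edgeR adjusted p = 0.105, DESeq2 adjusted p = 0.0243). Fyn, the Src family kinase that phosphorylates caveolin-1, had 18.9, 16.5 and 16.8 CPM in control mice 1, 2 and 3 and 6.35, 8.36 and 10.2 CPM in aPU.1KO mice 1, 2 and 3. The groups did not overlap, and the log2 fold change was -1.07 (SE 0.18, edgeR adjusted p = 0.0722, DESeq2 adjusted p = 2.3e-05). Src itself had a log2 fold change of 0.19, the insulin receptor Insr 0.21 and the fatty acid transporter Cd36 0.10, with edgeR adjusted p-values of 0.331, 0.325 and 0.680 (these 3 were picked from the list after their values were seen, to set beside Fyn and Slc2a4). The groups did not overlap for Cd36, by a narrow gap, with 5122 to 5481 CPM in control and 5491 to 6136 CPM in aPU.1KO mice.

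**Figure D4:**
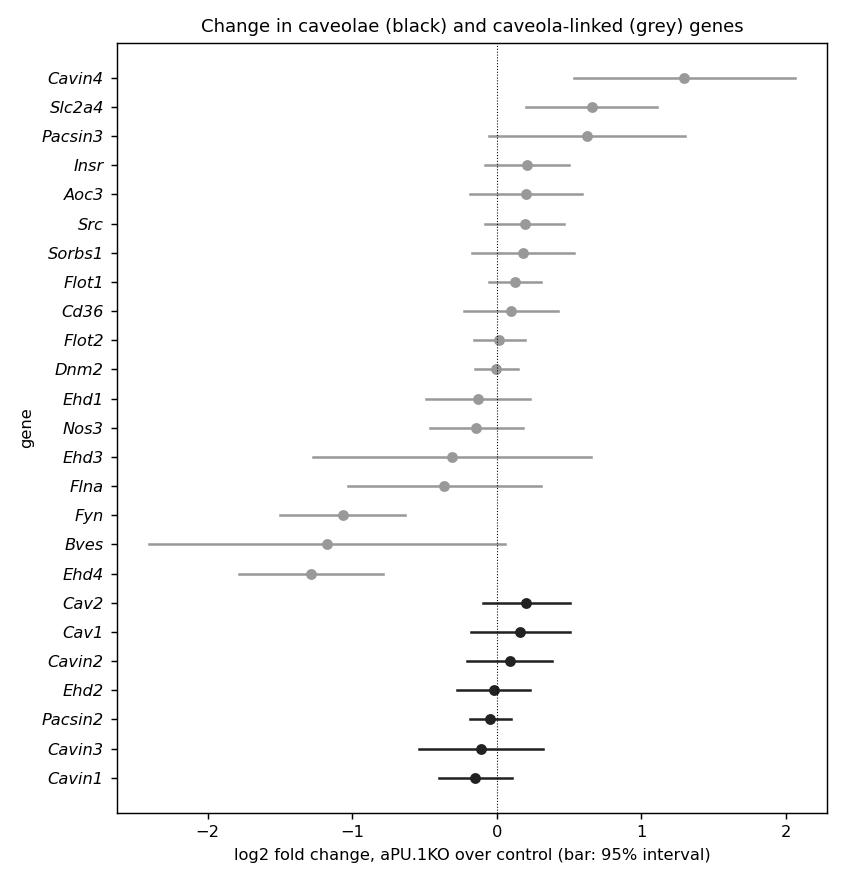
Log2 fold change of the 7 caveolae genes (black) and 18 other caveola-linked genes (grey), with 95% intervals from the quasi-likelihood fit. All 7 black intervals include 0, and among the grey ones those of Cavin4, Slc2a4, Fyn and Ehd4 do not.

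Caveolae genes are also expressed by endothelial cells, fibroblasts and smooth muscle, whose markers were counted in the same libraries. The summed level of 12 endothelial markers was 1019, 1201 and 795 CPM in control mice 1, 2 and 3 and 486, 1012 and 671 CPM in aPU.1KO mice 1, 2 and 3. The groups overlapped, although 12 of 12 markers had a negative log2 fold change, as had 6683 of all 13925 genes tested. Of these markers, Pecam1 and Cdh5 were at 139, 155 and 109 CPM and at 194, 222 and 148 CPM in control mice 1, 2 and 3. In aPU.1KO mice 1, 2 and 3 they were at 66.6, 129 and 83.7 CPM and at 88.0, 168 and 112 CPM. Control mouse 2, highest for Cav1, Cav2, Cavin2, Cavin3, Ehd2 and Pacsin2 among the controls, also had the highest endothelial sum there. Control mouse 3 had the lowest. The same mice were highest and lowest among controls for the smooth muscle and pericyte, mesothelial and hepatocyte sums. Among aPU.1KO mice, mouse 2 had the highest endothelial sum with the lowest Cav1, Cavin1, Cavin2 and Cavin3. It also had the highest Ehd2 and, narrowly, the highest Cav2 of that group.

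The 9 fibroblast and progenitor markers summed to 1310 to 1762 CPM in control mice and to 715 to 1027 CPM in aPU.1KO mice, and 9 of 9 had a negative log2 fold change. The 9 smooth muscle and pericyte markers summed to 517 to 765 CPM and to 404 to 534 CPM, and 8 of the 8 tested had a negative log2 fold change. In 4 of these every aPU.1KO value was below the controls, as in 15.5% of all genes tested. The same held for 7 of the 9 fibroblast and progenitor markers and 0 of the 12 endothelial ones. It also held for 9 of the 12 macrophage markers, 7 of the 7 hepatocyte markers and 1 of the 10 adipocyte markers. Of the adipocyte markers 8 were higher in every aPU.1KO mouse, as were 16.7% of all genes tested. The 12 macrophage markers summed to 898, 351 and 821 CPM in control mice 1, 2 and 3 and to 206 to 223 CPM in aPU.1KO mice, with 10 of 12 negative. Adgre1 (F4/80) stood at 129, 26.2 and 115 CPM and Csf1r at 140, 53.6 and 128 CPM in control mice 1, 2 and 3. In aPU.1KO mice 1, 2 and 3 they stood at 21.3, 7.96 and 15.7 CPM and at 29.2, 23.4 and 34.7 CPM. Control mouse 2 was the lowest control for 10 of the 12 macrophage markers and the highest for the other 2, Cd163 (23.9 CPM) and Mertk (59.4 CPM). It was also the lowest control for Ehd4, and its ratio of Cavin1 to Cav1 was the lowest control value. The 10 adipocyte markers summed to 26756 to 29207 CPM in control mice and to 32437 to 38975 CPM in aPU.1KO mice, with 9 of 10 positive and Lep negative. The part of these cell types in the levels of the caveolae genes, and in those of Spi1, Ehd4, Fyn and Slc2a4, was not tested. Mesothelial markers summed to 17.7 CPM or less in every mouse, and hepatocyte markers to 37.5 to 61.0 CPM in control and 17.1 to 23.0 CPM in aPU.1KO mice. Over the 8 lists 4 markers passed an edgeR adjusted p of 0.05, all lower in aPU.1KO mice, beside 0.237% of all 13925 genes tested. They were Mrc1 (macrophage, adjusted p = 0.0389), Pdgfrb (pericyte, 0.0491) and Apoa1 and Ttr (hepatocyte, 0.0268 and 0.0448). Each of these calls was lost under at least 1 alternative, where their highest adjusted p was 0.145 to 0.275. By DESeq2 the calls at that threshold were 7 adipocyte markers, all higher in aPU.1KO mice, and others that were all lower. The lower ones were 10 macrophage, 7 fibroblast and progenitor, 7 hepatocyte and 4 smooth muscle and pericyte markers. DESeq2 called 11% of the 16684 genes it tested.

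**Figure D5:**
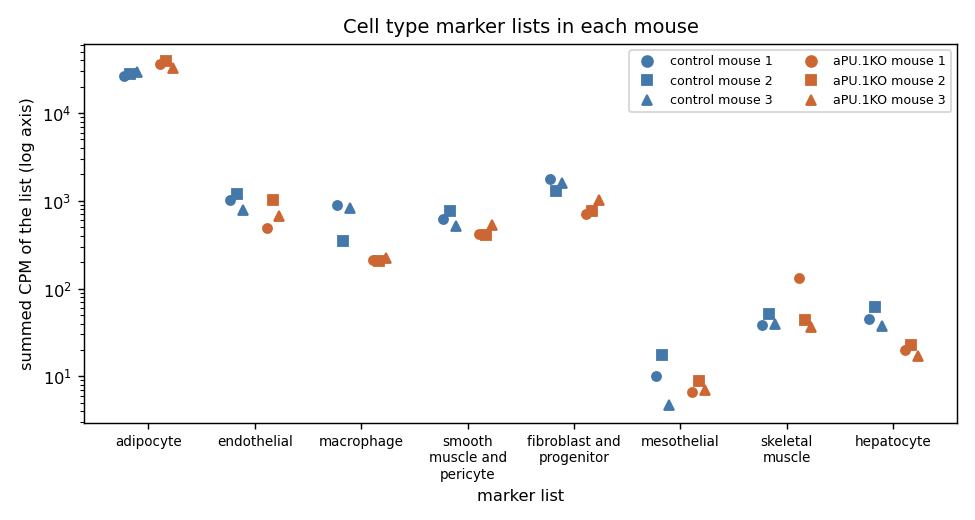
Summed CPM (log axis) of 8 cell type marker lists, with 1 symbol per mouse. Adipocyte sums are higher, and macrophage, fibroblast and hepatocyte sums lower, in all 3 aPU.1KO mice than in any control, and the endothelial, smooth muscle, mesothelial and skeletal muscle sums overlap.

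The genes with the pattern most like that of Cav1 across the 6 libraries, by the root mean square difference of log2 CPM centred on each gene's mean, were Ndfip1, Zmym2, Dstn, Thap12 and Klhl5, at 0.0231 to 0.0314. They were found among 5259 genes with an average log2 CPM of at least 5. Cav2 was in place 37 of that order with a difference of 0.0446, Cavin2 in place 213 and Ehd2 in place 907. Pacsin2, Cavin1 and Cavin3 were in places 1822, 3231 and 4096. Around Cavin1 the nearest genes were Atp9b, Pcnx3, Usp25, Gm49336 and Pi4ka, at 0.0286 to 0.0395, with Pacsin2 in place 181 and Cav1 in place 3120. The points share their libraries and depth, and the likeness is a description of 6 mice.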

How the data were processed

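Epididymal adipocyte RNA was sequenced from 3 control and 3 aPU.1KO mice. The authors quantified reads with Salmon on GRCm38, per the study's methods and the submitters' processing notes, which also name FastQC, and deposited estimated counts per gene as whole numbers without normalization. The Salmon version, the annotation and the use of strand are not given in the sources used here. Of 35122 Ensembl genes, 35102 were matched to a symbol and length in GENCODE M21 (GRCm38), and the others held 0.00188% of counts.

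Genes were filtered with filterByExpr, scaled with TMM factors and compared in R 4.3.3 with edgeR 4.0.16 (glmQLFit, glmQLFTest, Benjamini-Hochberg adjustment over 13925 genes). Standard errors came from the coefficient and the F statistic, and intervals from its degrees of freedom. The common biological coefficient of variation was 0.194. The log2 CPM values used to compare patterns had a prior count of 2. Level per kb is CPM over the length of all exons of a gene merged. Ratios were compared with an exact permutation test. Alternatives were RLE and upper-quartile scaling, at least 10 counts in every library or no filter, DESeq2 1.42.0, limma-voom (limma 3.58.1), robust dispersion, legacy = FALSE, control library 1 thinned to 22774415 counts, the longest transcript as length, and leaving out each mouse. Shared sequence was sought with BLAST 2.17.0 (at least 85% identity over 100 bp), and figures were drawn with matplotlib 3.10.9. The pipeline was tested on simulated data. Libraries of a group differed beyond sampling noise (the lowest chi-square was 20.4 per degree of freedom).

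The genes named are all 8 members, the 6 other family members, other linked genes with an unadjusted p under 0.05 and no overlap between groups, the 5 genes most like Cav1 and Cavin1, Spi1 and 6 markers. Src, Insr, Cd36, Bves, Flna, Acta1, Lep, Cd68, Itgam, Cd163, Mertk, Mrc1, Pdgfrb, Apoa1 and Ttr are named outside that rule, after their values were seen, and Dnm2 and Flot2 because they changed sign under an alternative. The rule for the 8 members uses their names alone, but the members and lists were chosen with earlier results of these data known. Depth limits rare genes such as Cav3 and Cavin4, and 3 mice a group limit every comparison.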

Additional observations from a re-analysis of the deposited data

How the results depend on the processing

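No paired analysis was possible because the labels give each mouse its own number, and no number is shared between the groups. Controls were littermates, so that mice of both groups may share a litter, but which do is not given in the sources used here. Of 105 log2 fold changes of caveolae genes under alternatives, 3 changed sign and 0 reached an adjusted p under 0.05. The ranges with each mouse left out were -0.0057 to 0.16 for Cavin2, -0.235 to 0.0733 for Cavin3, -0.0701 to 0.0414 for Ehd2, -0.616 to 0.0411 for Ehd3 and -0.097 to 0.19 for the log2 ratio of Cavin3 to Cavin1. Those of the log2 ratios without a change of sign were -0.41 to -0.22 for Cavin1 to Cav1, 0.15 to 0.31 for Cavin2 to Cavin1, -0.24 to -0.15 for Ehd2 to Cav1, -0.30 to -0.15 for Pacsin2 to Cav1 and 0.0066 to 0.061 for Cav2 to Cav1. Log2 fold changes also moved by over 1.5 times, without a change of sign, for the linked genes named here Pacsin3 (0.32 to 0.88), Ehd1 (-0.26 to -0.03), Insr (0.12 to 0.32), Src (0.12 to 0.29), Cd36 (0.03 to 0.13), Flna (-0.54 to -0.12) and Bves (-1.74 to -0.77). Dnm2 and Flot2 lay near 0 and changed sign too, with ranges of -0.0187 to 0.00149 and of -0.0113 to 0.0544, and Flot2 was -0.00534 with at least 10 counts in every library and -0.000771 without a filter. Caveolae genes at an unadjusted p under 0.05 numbered 0 by edgeR, 1 by DESeq2 (Cavin1) and 0 to 1 with a mouse left out (Cav2 without control mouse 2). Of 269 values of caveola-linked genes, 8 changed sign and 9 reached an adjusted p under 0.05. Linked genes at an adjusted p under 0.05 numbered 2 without a filter, 4 by DESeq2 and 0 to 3 with a mouse left out, 3 without control mouse 2 (Slc2a4, Fyn and Ehd4). Those higher at an unadjusted p under 0.05 numbered 2 to 4 with a mouse left out, 4 without control mouse 2. Over all genes, those at an adjusted p under 0.05 numbered 33 in the reported fit, 5 with at least 10 counts in every library, 146 without a filter and 1833 by DESeq2. With a mouse left out they ranged from 0, without control mouse 1 (1718 at an unadjusted p under 0.05), to 1193, without control mouse 2, and without control mouse 3 or aPU.1KO mouse 1, 2 or 3 they numbered 5, 6, 7 and 8. The cause of these shifts was not tested. With the longest transcript as length, levels in control and aPU.1KO mice were 1272 and 1423 CPM per kb for Cav1, 329 and 378 for Cav2 and 20.5 and 19.9 for Pacsin2, since that length is shorter than all exons merged. The median log2 fold change of all genes lay between -0.0221 and 0.0151 under the alternatives run.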

Other observations

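The sequence comparison found no gene with at least 85% identity over 100 bp to a caveolae gene other than Gm45667, which lies opposite Cavin3, and short matches of 118 bp or 2% of the transcript in Ehd2. Bves, a membrane protein that binds caveolin-3 in muscle, was named here after its values were seen. It had 38, 15 and 12 counts in control mice 1, 2 and 3 and 8, 2 and 5 counts in aPU.1KO mice 1, 2 and 3, with no overlap in CPM and a log2 fold change of -1.17 (SE 0.52, edgeR adjusted p = 0.212). Filamin A (Flna), which ties caveolae to actin and was also chosen after its values were seen, had 609, 717 and 442 CPM in control mice 1, 2 and 3 and 537, 290 and 546 CPM in aPU.1KO mice 1, 2 and 3. Its lowest value was in aPU.1KO mouse 2, the mouse with the lowest Cavin3 and Ehd3.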
